A study of Mus musculus with 4 samples.

Results

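Heart endothelial cells that lacked Smad3 were compared with wild-type cells after doxorubicin treatment, as 1 library titled Smad3 KO Dox against 1 library titled WT Dox. The members were the 12325 genes, of 45882 gene IDs in the deposited table, whose mean over the 4 libraries of the series reached 1 FPKM. The unit FPKM scales a gene's fragment count to transcript length and library size. All mice were male and 20 weeks old at collection. Smad3 KO Dox and WT Dox mice had received doxorubicin at 5 mg/kg in 4 weekly tail vein injections from 7 weeks of age, and their hearts were taken 9 weeks after the last injection. Smad3 KO saline and WT saline mice had received saline on the same schedule by their titles and treatment tags, while a general treatment field reads doxorubicin for all 4 samples. The knockout was the Smad3tm1Par allele on a 129 background, which removes Smad3 in every cell of the animal, so a difference in the endothelial fraction need not arise in endothelial cells. Neither the strain of the WT mice nor the number of animals behind a library was found in the labels or methods. Cells were released from perfused hearts with collagenase and captured with beads against CD31, the product of Pecam1, which endothelium carries at high levels and some blood cells carry too.

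The TGF-β pathway signals from ligands through paired kinase receptors to Smad2 and Smad3, which enter the nucleus with Smad4 and change transcription. In the heart the pathway is known for matrix production, for control of inflammation and for its effects on vessel growth. Endothelial cells purified on beads commonly carry RNA of macrophages that lie beside vessels and of trapped red blood cells, so genes of those cells were taken apart from endothelial genes before the endothelium was described.

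The words rose and fell are kept for a difference of 1 or more in log2(FPKM + 0.5), Smad3 KO Dox minus WT Dox. On this scale low genes show less change than they underwent. With 1 library in each group there is no replicate check, no error and no test for any difference given here. Of the genes tested, 762 rose (6.18%) and 462 fell (3.75%), and the median difference over all genes was 0.12. These shares, 6.18% and 3.75%, stand as the background for each list count below. The genes just inside the rule lay at 1 and -1 after rounding, and those just outside it at 0.999 and -0.999. The split depended on scaling, with 575 higher and 612 lower after median-ratio scaling, 568 and 624 after upper-quartile scaling, and 1286 and 299 when both libraries were set to the same level of pan-endothelial genes. The median of all genes was then 0.01, 0.01 and 0.30. The spacing of low values corresponded to about 21500000 fragments in Smad3 KO Dox and 26400000 in WT Dox, beside 26100000 in Smad3 KO saline and 28500000 in WT saline. For a transcript of 2000 nucleotides, 1 FPKM then stood for about 37 fragments in Smad3 KO Dox and 46 in WT Dox.

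The targeted gene, Smad3 (ENSMUSG00000032402), lies on the minus strand of chromosome 9 from 63646767 to 63757994 in GRCm38. Its level was 0.848 FPKM in Smad3 KO Dox and 2.09 in WT Dox, beside 1.02 in Smad3 KO saline and 2.95 in WT saline. Both KO libraries stood below both WT libraries, and the difference between the Dox libraries, -0.94, fell short of the rule. It passed at -1.21 with a pseudocount of 0.1 and stood at -0.63 with the trend over the longest transcript removed. The table gives 1 value per gene, so the deleted part of Smad3 cannot be read apart from the rest. The genotype tag goes against the title for the libraries titled WT Dox and Smad3 KO saline. Groups follow the titles, as the column names of the table do. Both Dox libraries carry the tag Smad3 KO, so grouping by the tag leaves no genotype comparison after doxorubicin.

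Macrophage genes were low in Smad3 KO Dox. Of 29 macrophage markers tested, 18 fell and none rose, and their median difference was -1.25 (-0.56 in Smad3 KO saline against WT saline). Lyz2, the lysozyme of myeloid cells, had 34.4 FPKM in Smad3 KO Dox and 167 in WT Dox, beside 69.6 in Smad3 KO saline and 192 in WT saline (log2 difference -2.26 between the Dox libraries). Mrc1, the mannose receptor of resident macrophages, had 7.68 and 25.4 FPKM in Smad3 KO Dox and WT Dox, and 16.3 and 24.3 FPKM in Smad3 KO saline and WT saline (-1.66). Adgre1, which encodes the macrophage surface antigen F4/80, had 3.23 and 10.3 FPKM in Smad3 KO Dox and WT Dox, and 6.06 and 9.96 FPKM in Smad3 KO saline and WT saline (-1.54). In each of these genes Smad3 KO Dox held the lowest of the 4 values. Beside Lyz2, the steepest falls were of C5ar1 (-2.69), the receptor of the complement fragment C5a, Trem2 (-2.50), a lipid-sensing receptor, F13a1 (-2.22), the clotting factor subunit made by macrophages, Cd163 (-2.07), the receptor for haemoglobin bound to haptoglobin, and Folr2 (-1.99), a folate receptor of tissue-resident macrophages. C1qb (-0.94), C1qc (-0.69) and Aif1 (0.04) did not pass. The summed level of the list was 397 FPKM in Smad3 KO Dox and 985 in WT Dox, beside 607 in Smad3 KO saline and 957 in WT saline. In bulk RNA, fewer macrophages and less RNA per macrophage cannot be told apart.

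**Figure D1:**
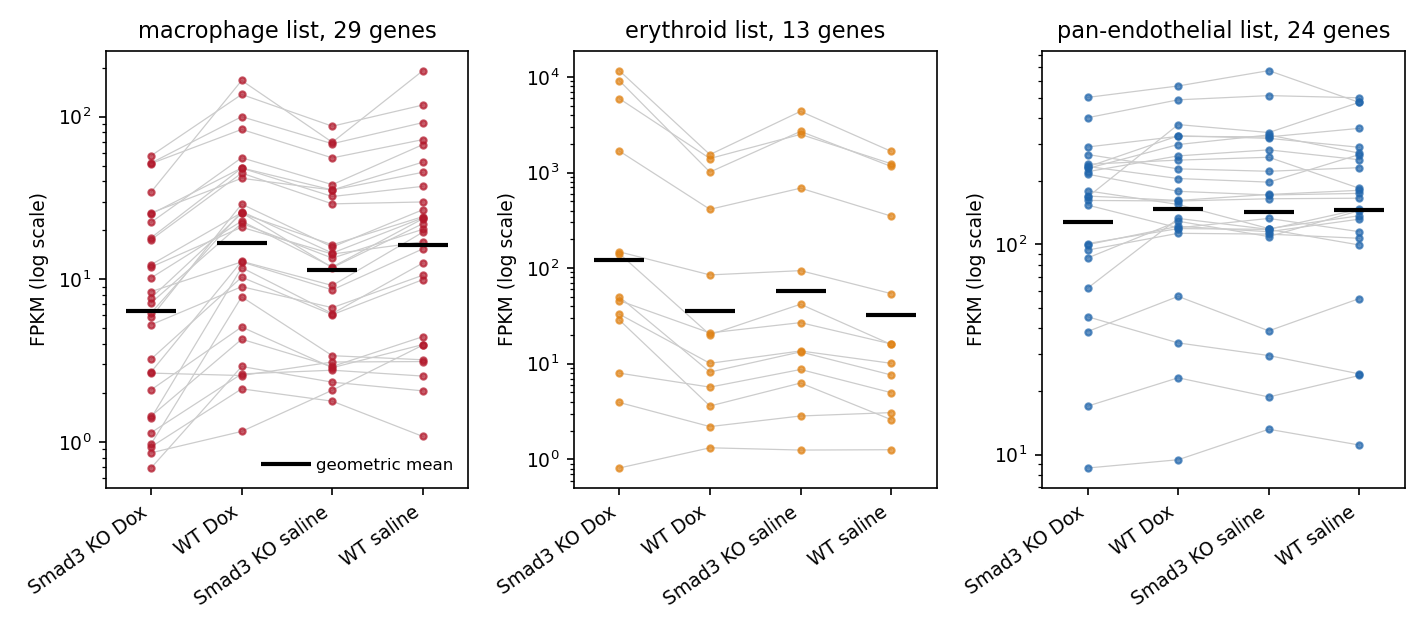
FPKM on a log axis of each macrophage (29 genes), erythroid (13 genes) and pan-endothelial (24 genes) marker in the 4 libraries, with 1 point per gene and library, a grey line joining the points of a gene, and a black bar at the geometric mean of the list. The macrophage geometric mean was 6.35 FPKM in Smad3 KO Dox and 16.8 FPKM in WT Dox, the erythroid mean 121 and 35.8 FPKM, and the pan-endothelial mean 128 and 147 FPKM.

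The proportions among macrophage genes were next compared, since RNA of a single, unchanged source would keep its genes in a fixed ratio. Divided by the geometric mean of the other macrophage markers in the same library, 25 of the 29 markers differed by less than 1 on the log2 scale between Smad3 KO Dox and WT Dox, and 22 varied less than 2-fold over all 4 libraries. Csf1r, the receptor on which macrophages depend for survival, fell by 1.40 on the log2 scale and stood at 2.94 times that mean in Smad3 KO Dox and at 2.98 times in WT Dox. Cd68, a lysosomal glycoprotein, stood at 1.13 and 1.33 times in the same libraries. Several genes outside the marker list kept a similar proportion. Hmox1, the heme-degrading oxygenase, fell by 1.29 on the log2 scale and stood at 4.01 times the macrophage mean in Smad3 KO Dox, against 3.73 times in WT Dox. Gas7, a gene singled out by the study from these samples, fell by 1.28 and stood at 0.286 times in Smad3 KO Dox, against 0.305 times in WT Dox. Vwf, the clotting glycoprotein of endothelium, also kept close to it, at 6.85 times in Smad3 KO Dox and 8.06 times in WT Dox. Relative to the macrophage mean, 11 of 15 lymphatic, 13 of 20 endocardial and 6 of 24 pan-endothelial genes also differed by less than 1. A steady ratio is thus not particular to macrophage genes. Nor did every list keep its own proportions, as 5 of 13 erythroid genes differed by less than 1 against the mean of the other erythroid genes.

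Many CC chemokines, which guide leukocytes, were also lower in Smad3 KO Dox. Of 20 CC chemokine and receptor genes, 9 fell and 2 rose, beside 3.75% and 6.18% of all genes. Ccl2 and Ccl7, attractants of monocytes, had 15.2 and 18.6 FPKM in Smad3 KO Dox, against 38.4 and 50.4 FPKM in WT Dox (-1.31 and -1.42). Their ratio to the macrophage mean was almost the same in both libraries, with 2.39 times for Ccl2 in Smad3 KO Dox and 2.28 times in WT Dox, and 2.93 and 2.99 times for Ccl7. Ccl6 and Ccl9, macrophage chemokines of the mouse that the study named from these libraries, had 13.2 and 8.19 FPKM in Smad3 KO Dox, against 50.7 and 41.7 FPKM in WT Dox (-1.91 and -2.28). Relative to the macrophage mean they differed by -0.54 and -0.94 on the log2 scale. Ccl24, an attractant of eosinophils, fell further, to 0.172 times the macrophage mean in Smad3 KO Dox against 0.456 times in WT Dox (-2.36 in level). Ccl8, another monocyte attractant, set both KO libraries apart from both WT libraries. It had 0.187 FPKM in Smad3 KO Dox and 4.46 in WT Dox, beside 0.359 in Smad3 KO saline and 4.99 in WT saline. By the estimated depth, these were about 1.0 and 29.5 fragments in Smad3 KO Dox and WT Dox, and 2.0 and 32.8 fragments in Smad3 KO saline and WT saline. Relative to the macrophage mean Ccl8 stood at 0.0295 times in Smad3 KO Dox and 0.0315 times in Smad3 KO saline, against 0.265 times in WT Dox and 0.308 times in WT saline. Ccl25, known as a thymic chemokine (3.56 FPKM in Smad3 KO Dox and 0.719 FPKM in WT Dox), and Ccl27a, known as a skin chemokine (6.95 and 2.52 FPKM), rose. Ccl25 had 1.05 FPKM in Smad3 KO saline and 0.434 in WT saline, and it reached the filter only through Smad3 KO Dox. Ccl27a belongs to a set of near-identical copies and is uncertain on its own.

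**Figure D2:**
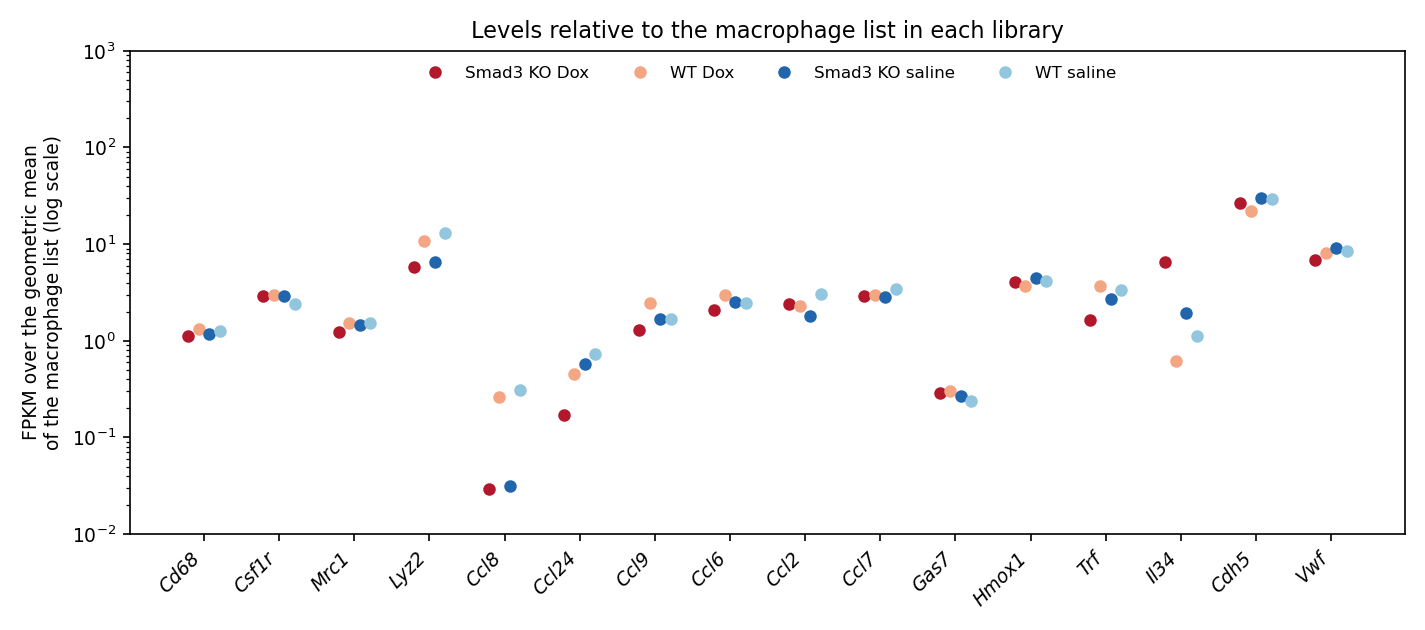
Ratio of the FPKM of 16 genes to the geometric mean FPKM of the macrophage markers of the same library (log axis; a marker's own value is left out of the mean), with 1 point per library. The 4 points of Cd68, Csf1r, Ccl7 and Hmox1 lie close together, Ccl8 is low in both KO libraries, and Il34 stands at 6.53 in Smad3 KO Dox and 0.623 in WT Dox.

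The macrophage growth factors did not move together. Il34, a further ligand of the Csf1 receptor, had 41.4 FPKM in Smad3 KO Dox and 10.5 in WT Dox, beside 22.04 in Smad3 KO saline and 18.2 in WT saline (1.93 between the Dox libraries). Csf1 itself differed by -0.11. Of 20 genes of this system and of interleukins, 4 fell, Il1rn (-1.83), the natural antagonist of interleukin 1, Csf1r, Il6ra (-1.31) and Il10ra (-1.08). Complement genes fell in 6 of 17, beside 3.75% of all genes. Among them were C5ar1, C1qa (-1.25), which starts the classical pathway, and Cfp (-1.65), the properdin that steadies the alternative convertase. C4b (-1.34), whose close copy may share its reads, and C3ar1 (-1.14), a receptor of the fragment C3a, also fell. In the iron and heme list Trf, the iron carrier transferrin, had 10.5 FPKM in Smad3 KO Dox and 61.7 in WT Dox, beside 30.6 in Smad3 KO saline and 54.1 in WT saline (-2.50). Relative to the macrophage mean it was 1.66 times in Smad3 KO Dox and 3.67 times in WT Dox. Trf shares exon bases with a predicted gene on its strand, and their reads cannot be told apart.

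Of 33 genes of other white cells and platelets 11 passed (33.3%), beside 9.93% of all genes in either direction, and most of these 11 had a few FPKM or less. Low genes such as Cd4, at 2.88 FPKM in Smad3 KO Dox and below 1 FPKM elsewhere, reached the filter only through 1 library. These shares are therefore not a like comparison. Lst1 (-2.09) and Ms4a6c (-1.51) fell among 7 monocyte genes, whose summed level was 332 FPKM in Smad3 KO Dox and 324 FPKM in WT Dox. Most of that sum came from Nr4a1, a gene not particular to monocytes, with 260 FPKM in Smad3 KO Dox and 227 FPKM in WT Dox. The neutrophil genes S100a9, a subunit of the antimicrobial protein calprotectin, and Retnlg had 2.61 and 6.87 FPKM in Smad3 KO Dox, while WT Dox had the lowest value of the table, 0.05 FPKM, for S100a9 and 1.21 FPKM for Retnlg. The third neutrophil gene tested, the protease Mmp9, went the other way, with 0.431 FPKM in Smad3 KO Dox and 2.55 in WT Dox (-1.71). The mast cell proteases Mcpt4 and Tpsb2 stood at 0.05 FPKM in Smad3 KO Dox, against 2.77 and 1.67 FPKM in WT Dox. Siglech (-1.15), a receptor of plasmacytoid dendritic cells, and Cd79b (-1.45), a subunit of the B cell receptor, fell, and Cd4 (1.28), the coreceptor of helper T cells, and Cd22 (1.12), an inhibitory receptor of B cells, rose. None of 3 platelet genes passed.

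Red blood cell genes were far higher in Smad3 KO Dox. Of 13 erythroid genes tested, 9 rose and none fell, with a median difference of 2.02 (0.79 in the saline pair). The α-globin gene Hba-a1 had 9156 FPKM in Smad3 KO Dox and 1011 in WT Dox, beside 2693 in Smad3 KO saline and 1157 in WT saline (3.18 between the Dox libraries). Alas2, which starts heme synthesis in red cells, had 142 and 20.1 FPKM in Smad3 KO Dox and WT Dox, and 41.9 and 15.9 FPKM in Smad3 KO saline and WT saline (2.79). Smad3 KO Dox stood above the other 3 libraries in both genes, and Smad3 KO saline held the second place. Bpgm (2.55), which sets the oxygen affinity of haemoglobin, and Fech (1.66), the last enzyme of heme synthesis, rose with the globins. Several defining red cell genes were under the filter. The membrane protein Slc4a1 had 0.858 FPKM in Smad3 KO Dox and 0.05 in WT Dox, Rhag stood at 0.05 FPKM in all 4 libraries, and the erythroid factors Gata1 and Klf1 did not exceed 0.279 FPKM in any. The part of red cell RNA in the other differences was not tested. Globin genes took 5.04% of all FPKM in Smad3 KO Dox and 0.753% in WT Dox, against 1.54% in Smad3 KO saline and 0.864% in WT saline. The α- and β-globin copies are near-identical and cannot be told apart one by one.

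The promoter of Alas2 is shown for the GATA motif, which erythroid factors bind. The 140 bases before its RefSeq start (GRCm38.p6, chrX:150547277-150547416, plus strand) hold the motif AGATAA on the reverse strand, in capitals.
Alas2: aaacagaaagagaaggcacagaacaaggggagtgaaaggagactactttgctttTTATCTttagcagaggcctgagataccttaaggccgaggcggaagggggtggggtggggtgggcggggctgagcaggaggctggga
The same motif, searched on both strands of windows from 250 bases before to 50 after each start, was in 2 of 8 erythroid genes with a RefSeq window (25.0%) and in 12.7% of 27025 genes with one. GAGGAAGT, bound by the macrophage factor PU.1, was in 4 of 22 macrophage genes with a window (18.2%) and in 3.69% of all. It was in 2 of the 12 macrophage genes that fell and in 2 of the 10 that did not pass.

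Cardiac muscle and mural cell genes moved less than red blood cell genes. Of 25 cardiomyocyte genes 4 rose and 1 fell, beside 6.18% and 3.75% of all genes, and the list median was 0.34. The genes that rose were Ckm (137 FPKM in Smad3 KO Dox and 48.1 FPKM in WT Dox), Tnnc1, Actc1 and Myl2, which serve energy supply and contraction. The summed level of the list was 2958 FPKM in Smad3 KO Dox and 1928 FPKM in WT Dox. Sln, an inhibitor of the calcium pump of muscle and a gene of atrial muscle, stood at the lowest value in Smad3 KO Dox and at 4.24 in WT Dox, beside 15.3 in Smad3 KO saline and 9.06 in WT saline. None of 17 fibroblast genes passed, with a median of 0.12, equal to that of all genes. In the pericyte and smooth muscle list of 17, Vtn (1.12) and Kcnj8 (1.11), a potassium channel subunit of pericytes, rose and Myocd (-1.04), a coactivator of smooth muscle genes, fell. Of the 138 tested markers of other cell types, 19 rose and 27 fell, beside 6.18% and 3.75% of all genes. With these markers left out, 743 genes rose and 435 fell. The lists hold few of the 12325 genes tested, so most called genes had to lie outside them. The part of other cells in those genes was not tested.

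**Figure D3:**
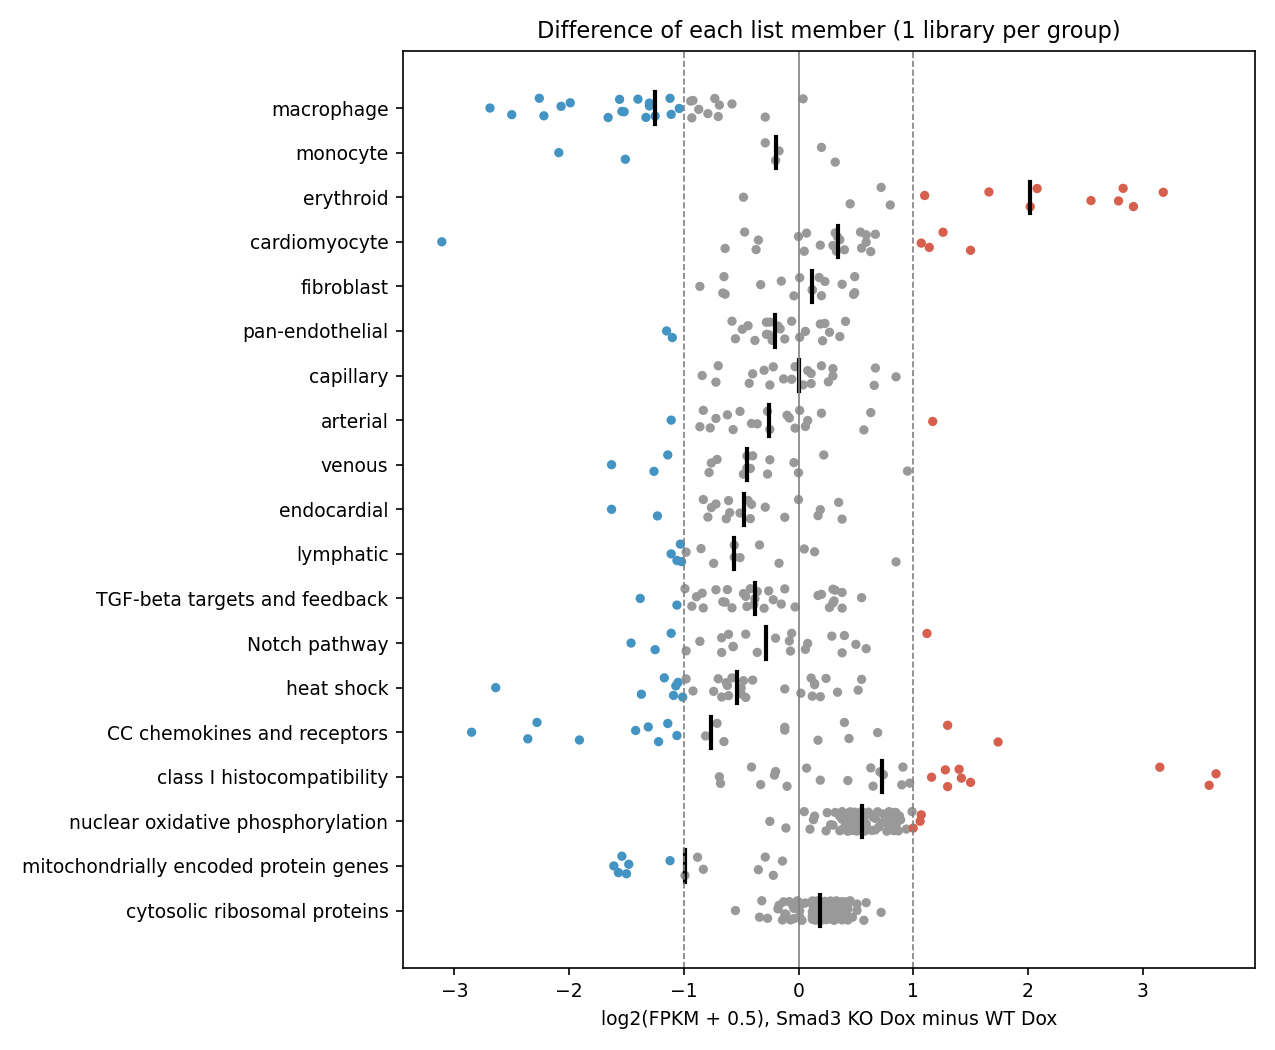
Difference in log2(FPKM + 0.5), Smad3 KO Dox minus WT Dox, of each tested member of 19 lists, with points past the rule in red (higher) or blue (lower), dashed lines at the rule and a black bar at the median. Macrophage genes lie to the left (median -1.25), erythroid genes to the right (2.02), and capillary genes around 0.01.

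General endothelial genes passed about as often as genes at large when both directions are counted, with 2 of 24 (8.33%) beside 9.93%. Both were lower, beside 3.75% of all genes, and none rose, beside 6.18% of all genes. The median of this pan-endothelial list was -0.21. It was 0.00 with the trend over the median transcript length removed and -0.32 with median-ratio scaling. Pecam1, the protein used for selection, had 401 FPKM in Smad3 KO Dox and 488 in WT Dox, beside 511 in Smad3 KO saline and 499 in WT saline (-0.28). Kdr (-0.25), the main VEGF receptor, Tek (-0.23), the angiopoietin receptor, and Cldn5 (0.21), a tight junction protein, lay within 0.3 of no difference. None of 22 capillary genes and none of 18 leukocyte adhesion genes passed, with medians of 0.01 and -0.18. Cdh5, the cadherin of endothelial junctions, was an exception, with 168 FPKM in Smad3 KO Dox and 372 in WT Dox, beside 341 in Smad3 KO saline and 475 in WT saline (-1.15). It stood at -0.95, short of the rule, with both libraries at the same pan-endothelial level. Ptprb, a phosphatase that acts on Tek and on Cdh5, also fell (-1.10). Vwf had 43.5 FPKM in Smad3 KO Dox and 136 in WT Dox, beside 103 in Smad3 KO saline and 137 in WT saline (-1.63). Nrp1, a coreceptor for VEGF, rose, with 649 FPKM in Smad3 KO Dox and 289 in WT Dox, beside 414 in Smad3 KO saline and 238 in WT saline (1.17).

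Lymphatic, endocardial and venous genes sat slightly lower than the rest, with list medians of -0.56, -0.48 and -0.45. Of 15 lymphatic genes 4 fell, beside 3.75% of all genes. They were Lyve1 (-1.11), the hyaluronan receptor that macrophages also carry, Ccl21a (-1.06), Reln (-1.03) and Mmrn1 (-1.02). Ccl21a guides dendritic cells into lymph vessels and has near-identical copies. With both libraries at the same pan-endothelial level none of the 15 fell, and these 4 stood at -0.91, -0.86, -0.86 and -0.83. Of 20 endocardial genes Vwf and Npr3 (-1.23), the clearance receptor of natriuretic peptides, fell. Apoe, a lipid carrier made by macrophages and other cells and placed in the venous list, had 321 FPKM in Smad3 KO Dox and 769 FPKM in WT Dox (-1.26). In the Notch pathway, which sets arterial fate, Notch1 had 32.1 FPKM in Smad3 KO Dox and 88.9 in WT Dox, beside 77.9 in Smad3 KO saline and 117 in WT saline (-1.46). The receptor Notch2 (-1.25) and the ligand Jag1 (-1.11) also fell, which makes 3 of 24 Notch genes, beside 3.75% of all genes. The nuclear cofactor Snw1 rose (1.12). Part of Notch1 overlaps a low gene on the other strand.

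Transcript length moved with these differences. Protein-coding genes were put in 5 equal groups by their longest annotated transcript. The group with the shortest (201 to 1938 nucleotides) had a median difference of 0.39, with 9.48% higher and 3.19% lower. The group with the longest (5268 nucleotides and more) had a median of -0.33, with 1.46% higher and 6.83% lower. In the saline pair the corresponding medians were 0.15 and -0.24. Many of the endothelial genes that fell have long transcripts, among them Notch1 (9488 nucleotides), Ptprb (11911) and Vwf (8834). With the trend over the longest transcript removed, the differences became -0.89 for Notch1, -0.66 for Notch2, -0.78 for Jag1, -0.51 for Ptprb and -0.74 for Npr3, all short of the rule. Cdh5 (-1.06), Vwf (-1.07) and Lyve1 (-1.22) still passed. In the macrophage list 23 of 29 genes were lower after removal, against 18 before, with a median of -1.31, and the pan-endothelial median moved to -0.04. RNA quality was not measured in the files, and its part in the trend was not tested.

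**Figure D4:**
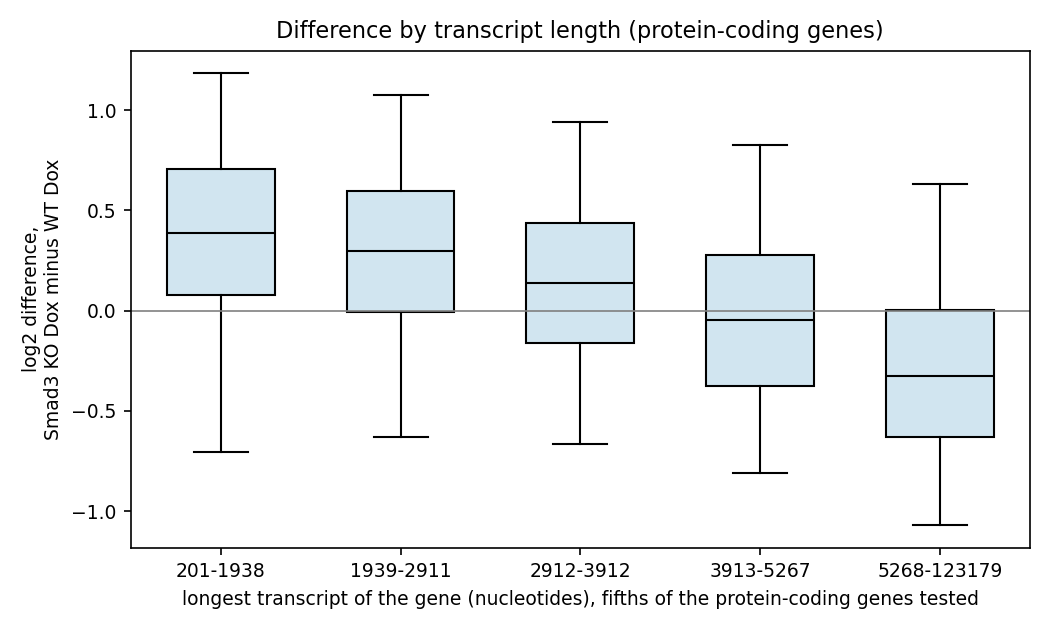
Difference in log2(FPKM + 0.5), Smad3 KO Dox minus WT Dox, of protein-coding genes in 5 equal groups by their longest transcript (nucleotides), with boxes over the middle 50% of genes, whiskers at the 5th and 95th percentiles and a line at the median. The medians run from 0.39 in the shortest group to -0.33 in the longest.

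Vessel growth and tone were then read through their genes. The counts here stand beside 6.18% of all genes that rose and 3.75% that fell, and none was tested. Of 33 VEGF and angiopoietin genes 3 rose, Nrp1, Pdgfa (1.17), a ligand for mural cells, and Apln (1.03), a peptide of sprouting endothelium, and Cxcr4 (-1.07), the receptor of the chemokine Cxcl12, fell. Apln fell short of the rule under 4 alternatives (0.93 with median-ratio scaling), Pdgfa with the trend over the longest transcript removed (0.94), and Cxcr4 at the same pan-endothelial level (-0.87). Of 30 vasoactive genes Npr3, the calcium channel Trpv4 (-1.21) and Ece1 fell, while Nos3, the nitric oxide synthase of endothelium, had 115 FPKM in Smad3 KO Dox and 107 in WT Dox, beside 110 in Smad3 KO saline and 109 in WT saline. Nos3 was thus nearly level over the 4 libraries. In the matrix list of 37, Hspg2 (-1.34), the basement membrane proteoglycan perlecan, fell and Mmp14 (1.15), a membrane-bound metalloproteinase, rose, and Hspg2 stood at -0.75 with the trend over the longest transcript removed. Cdkn1a, the p53 target that halts the cell cycle, differed by -0.15, and of 26 p53, arrest and senescence genes only Gas7 passed. Of 23 replication and mitosis genes Aurkb (1.30), a mitotic kinase, and Haus1 rose.

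Genes of the TGF-β pathway fell at shares near the 3.75% of all genes, with 4.55% among ligands, receptors and Smads and 5.71% among targets. None rose in either list, beside 6.18% of all genes. Counted in both directions, these shares stood below the 9.93% of all genes. Of 22 ligands, receptors and Smads only Ltbp4 passed, a latent TGF-β binding protein that stores the ligand in the matrix, with 133 FPKM in Smad3 KO Dox and 371 in WT Dox, beside 389 in Smad3 KO saline and 491 in WT saline (-1.48; -1.17 with the trend over the longest transcript removed). Smad3 KO Dox stood apart from the other 3 libraries. The ligands Tgfb1 (-0.28), Tgfb2 (0.53) and Tgfb3 (-0.02), the receptors Tgfbr1 (-0.39) and Tgfbr2 (-0.84), and the partner factors Smad2 (0.42) and Smad4 (0.03) did not pass. Of 35 target and feedback genes, Smad7 and Tns1 fell, and the median was -0.38. Smad7, an inhibitory Smad that feeds back on the receptors, had 9.63 FPKM in Smad3 KO Dox and 25.9 in WT Dox, beside 21.2 in Smad3 KO saline and 38.0 in WT saline (-1.38). Tns1, a protein of adhesion sites, differed by -1.06 and by -0.47 with that trend removed. Ctgf (-0.03), a matricellular protein and a widely used readout of the pathway, did not pass. Bmp4, a ligand of the related BMP pathway, rose, with 18.2 FPKM in Smad3 KO Dox and 8.25 FPKM in WT Dox (1.09), and fell short of the rule under 4 alternatives, among them median-ratio scaling (0.99). The Smad palindrome GTCTAGAC was in none of the 19 RefSeq windows of the target list and in 0.248% of all windows.

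Heat shock genes fell in 7 of 32, beside 3.75% of all genes, and none rose. Hsph1, a nucleotide exchange factor of the Hsp70 chaperones, had 7.26 FPKM in Smad3 KO Dox and 47.8 in WT Dox, beside 16.6 in Smad3 KO saline and 32.8 in WT saline (-2.64). The small chaperone Hspb1 had 481 and 1083 FPKM in Smad3 KO Dox and WT Dox, and 797 and 1060 FPKM in Smad3 KO saline and WT saline (-1.17). Hspa4l (-1.37), Dnaja1 (-1.09), Stip1 (-1.07), Chordc1 (-1.05) and Hspa5 (-1.01), the chaperone of the endoplasmic reticulum, also fell. The inducible Hsp70 genes Hspa1a (-0.46) and Hspa1b (-0.62), a near-identical pair, did not pass. With both libraries set to the same pan-endothelial level, 2 of the 32 fell past the rule. The promoters of 2 genes that fell are shown for the heat shock element, the site of heat shock factors. The 140 bases before the RefSeq starts of Hspb1 (GRCm38.p6, chr5:135887779-135887918, plus strand) and Dnaja1 (chr4:40722328-40722467, plus strand) hold its core GAANNTTC, in capitals.
Hspb1: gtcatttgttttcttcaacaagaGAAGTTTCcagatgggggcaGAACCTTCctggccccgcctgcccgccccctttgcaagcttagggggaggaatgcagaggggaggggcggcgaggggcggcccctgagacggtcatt
Dnaja1: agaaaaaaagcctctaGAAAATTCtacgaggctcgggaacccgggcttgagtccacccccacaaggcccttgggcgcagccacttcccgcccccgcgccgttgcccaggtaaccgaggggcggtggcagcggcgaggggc
The core, which may overlap other motifs searched, was in 13 of 25 heat shock genes with a window (52.0%) and in 9.04% of all genes with one. It was in 4 of the 7 genes that fell and in 9 of the 18 that did not pass.

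Class I histocompatibility genes, which present peptides to T cells, were higher in Smad3 KO Dox. Of 26 genes 9 rose, beside 6.18% of all genes, and none fell, with a median of 0.72. H2-Q6 had 135 FPKM in Smad3 KO Dox and 10.8 in WT Dox, beside 58.7 in Smad3 KO saline and 7.83 in WT saline (3.58). H2-Q7 had 148 and 16.3 FPKM in Smad3 KO Dox and WT Dox, and 59.2 and 9.12 FPKM in Smad3 KO saline and WT saline (3.15). For both, the KO libraries lay above the WT libraries with a wide gap, and H2-Q5 did the same (3.64 in the Dox pair and 3.65 in the saline pair). These are closely related copies, uncertain one by one. H2-K1, a classical class I chain, had 1018 FPKM in Smad3 KO Dox and 361 in WT Dox, beside 549 in Smad3 KO saline and 320 in WT saline (1.497). The immunoproteasome subunits Psmb8 (1.42) and Psmb9 (1.40) and the peptide transporter Tap1 (1.16) rose, and B2m (0.90) and Tap2 (0.19) did not pass. The H2 genes, Psmb8, Psmb9 and Tap1 lie on chromosome 17, where 17 of 131 genes between 33 and 39 Mb rose and 7 fell. That window holds class I genes counted above, H2-Q6 and H2-Q7 among them, so its count is not separate from theirs. Whether its other genes rose more often than genes at large was not tested. Among 35 interferon response genes only Isg20 (1.59) and Ifit1 (1.14), antiviral effectors, rose, with a list median of 0.02. The interferon element core TTCNNTTTC was in 4 of 19 class I windows (21.1%), in none of the 7 windows of genes that rose, and in 9.76% of all windows.

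Genes that differed in both genotype pairs were read next, since the Dox pair and the saline pair share no library. In Smad3 KO saline against WT saline, 209 genes were higher (1.70%) and 373 lower (3.03%). Of the genes that rose in the Dox pair, 64 also passed upward in the saline pair (8.40% of the Dox list and 30.6% of the saline list). Of those that fell, 75 passed downward in both (16.2% and 20.1%). Hnrnph1, a splicing factor, had 81.5 FPKM in Smad3 KO Dox and 620 in WT Dox, beside 88.0 in Smad3 KO saline and 596 in WT saline (-2.92 and -2.75). Dbp, a clock-controlled transcription factor, had 127 and 40.8 FPKM in Smad3 KO Dox and WT Dox, and 82.2 and 25.6 FPKM in Smad3 KO saline and WT saline (1.62 and 1.66). Dbp shares 539 exon bases with Sphk2 on the other strand, and their reads cannot be told apart without strand. In both genes the genotypes separated by a similar amount with either treatment. Nudt16, a nuclear RNA decapping enzyme, and Thoc3, a subunit of the mRNA export complex, were also higher in both pairs (2.33 and 1.78 for Nudt16, and 1.64 and 1.41 for Thoc3). Lyz2, Ccl2 and Fcna, a ficolin of macrophages, were lower in both pairs. Genes near Smad3 did not stand out, with 13 higher (5.22%) and 6 lower (2.41%) of 249 within 20 Mb.

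**Figure D5:**
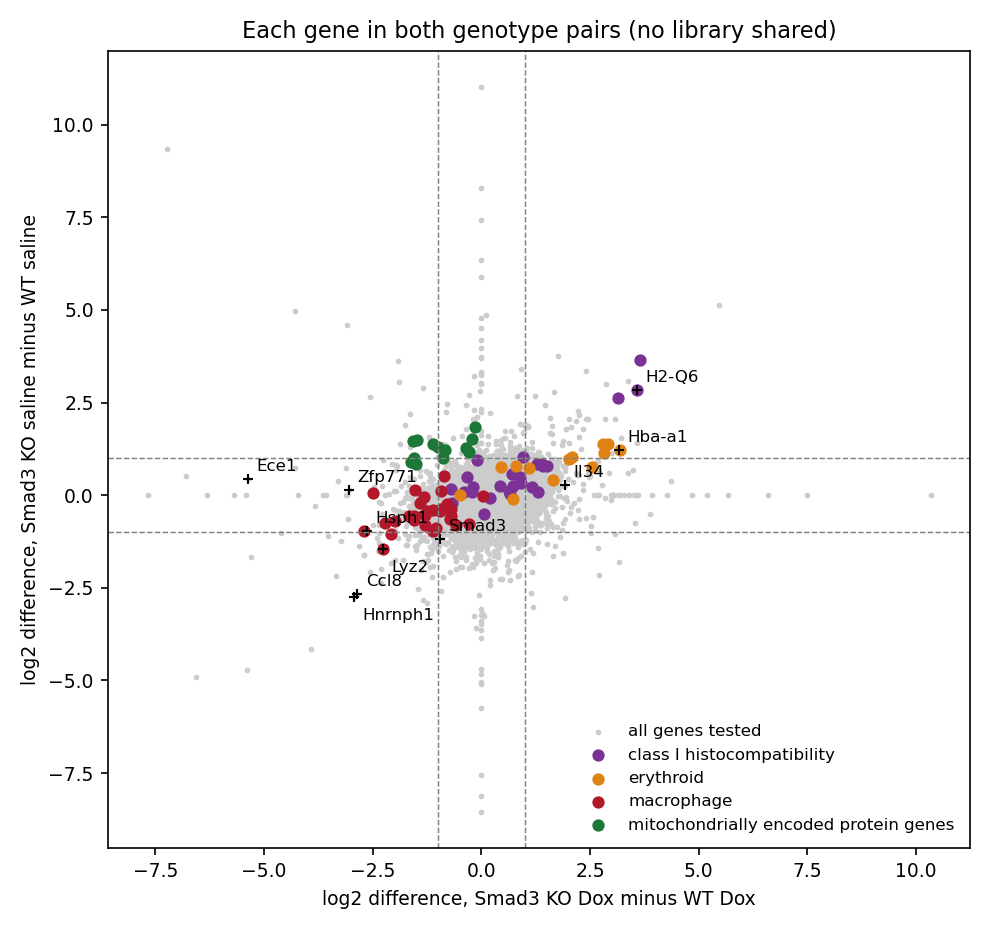
Difference in log2(FPKM + 0.5) of each of the 12325 genes between Smad3 KO Dox and WT Dox (horizontal axis) and between Smad3 KO saline and WT saline (vertical axis), with dashed lines at the rule. H2-Q6, Hba-a1, Hnrnph1 and Ccl8 lie at the same side of 0 in both pairs, and the 13 mitochondrially encoded protein genes lie left of 0 and above 0.

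The value in Smad3 KO Dox lay above all 3 other libraries for 93.8% of the genes that rose and below all 3 for 89.4% of those that fell. Over all genes tested these shares were 41.5% and 31.4%, and the choice of genes by the Smad3 KO Dox value raises them. Ece1, the enzyme that makes active endothelin, had 86.6 FPKM in Smad3 KO Dox and 3614 in WT Dox, beside 5589 in Smad3 KO saline and 4144 in WT saline (-5.37). In those other 3 libraries it stood above Pecam1, and whether all of that value came from Ece1 transcripts cannot be read from FPKM per gene. Ift46, a ciliary transport protein, had 164 and 14.2 FPKM in Smad3 KO Dox and WT Dox, and 25.9 and 15.8 FPKM in Smad3 KO saline and WT saline (3.48). These were the extremes of a single library. For Zfp771, a zinc finger protein, the level was 12.2 FPKM in Smad3 KO Dox and 104 in WT Dox, beside 5.25 in Smad3 KO saline and 4.72 in WT saline, so that WT Dox stood alone (-3.04). Bach2, a transcription factor of lymphocytes, had 3.12 FPKM in Smad3 KO Dox and 13.5 FPKM in WT Dox (-1.95), with 9.98 and 5.61 FPKM in Smad3 KO saline and WT saline. Among the 20 lowest protein-coding genes averaging 5 FPKM or more, 5 were macrophage markers and 3 CC chemokines, and Retnla (-1.75) and Plek (-1.91), both known from myeloid cells, were there too. Among the 20 highest, 7 were erythroid markers and 2 class I genes.

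Oxidative phosphorylation genes of the nuclear and mitochondrial genomes moved apart. Of 74 nuclear genes of oxidative phosphorylation, 72 were above 0, with a median of 0.55 beside 0.12 for all genes. Only 3 of them rose, beside 6.18% of all genes. The 13 mitochondrially encoded protein genes were all below 0, with a median of -0.99, and 6 fell, beside 3.75% of all genes. In the saline pair all 13 were above 0 and 11 passed upward (median 1.27), so the direction turned with the pair. mt-Co1, the catalytic subunit of cytochrome oxidase, had 4950 FPKM in Smad3 KO Dox and 14422 in WT Dox, beside 16316 in Smad3 KO saline and 8075 in WT saline. Mitochondrially encoded genes took 8.95% of all FPKM in Smad3 KO Dox and 16.8% in WT Dox. With the trend over the longest transcript removed, none of the 74 nuclear genes passed, and their median was 0.33. None passed with median-ratio scaling either, with a median of 0.44. None of 77 ribosomal protein genes and none of 12 reference genes passed, among them Gapdh (0.64) and Actb (-0.09).

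Of the 8 genes the study named from these same libraries, 6 were tested. The study chose them on these samples, so their direction is not independent evidence. Ccl9, Ccl6, Ccl5 (-1.14) and Gas7 fell and Haus1 (1.55), a subunit of the spindle augmin complex, rose. Hgf (0.97), a growth factor of endothelium and epithelium, did not pass, and Chaf1a and E2f2 were under the filter. Gas7 differed by -0.79 with the trend over the longest transcript removed, and Ccl5 by -0.89 with a pseudocount of 1.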

How the data were processed

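RNA was sequenced from CD31-selected heart cells of 4 groups of mice, with 1 library each. The authors deposited FPKM per gene and library, in which 0.05 stands in place of 0. The submitters' notes name CASAVA, STAR and GRCm38.p4, whereas TopHat, Bowtie and Cufflinks stand in the published methods for all sequencing, so the aligner is uncertain. No source used here gave an annotation release or said whether strand was used, so overlapping genes cannot be told apart.

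The table held 45952 lines for 45882 gene IDs; lines of the 51 IDs on several lines were summed, and 1 value below 0.05 was set to it. Differences were taken between log2(FPKM + 0.5) of 2 libraries over genes whose mean reached 1 FPKM, with a size rule of 1. No count model was used, since FPKM carry no counts. Depth was estimated from values under 0.5 FPKM of long genes with 1 transcript, of which 75.2% to 83.9% per library came out within 0.05 of a whole fragment; these estimates cover counting only. Positions, transcript lengths and overlaps were taken from GENCODE and promoters from RefSeq (GRCm38.p6). Python 3.11.15, numpy 2.4.6 and pandas 2.3.3 were used. The size rule was also run on counts simulated around WT Dox, with planted differences larger than the rule and counting noise only. That run holds no variation between animals or preparations, so it cannot show how often the rule errs here.

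Of 1155 list entries in 48 lists of cell types and pathways, 12 symbols were not matched. Named genes were Smad3, the 3 largest rises and 3 largest falls past the rule in each list, macrophage, erythroid and pan-endothelial members, the 8 genes of the study, the 20 highest and 20 lowest protein-coding genes averaging 5 FPKM or more, up to 10 per direction in both genotype pairs, and reference genes; predicted genes and receptor segments were not named, and of more genes than could be described those with the larger mean were. Members given as not passing, and the lengths and ratios beside them, were chosen after their values were seen. Some genes that the rule names are not reported here. The members and lists were chosen with earlier results of these data known. Alternatives changed pseudocount, filter, scaling, size rule, transcript length and gene classes, 1 at a time.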

Additional observations from a re-analysis of the deposited data

Results flagged for a closer look

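The effect of genotype had opposite signs after doxorubicin and after saline, past the size rule in both, for 3 named genes. The difference between the pairs was not tested, since each rests on 1 library per group. mt-Atp8, a subunit of ATP synthase, differed by -1.57 in Smad3 KO Dox against WT Dox and by 1.47 in Smad3 KO saline against WT saline. mt-Co1 differed by -1.54 in the Dox pair and by 1.01 in the saline pair. Ccl27a differed by 1.30 in the Dox pair and by -1.26 in the saline pair, with 6.95 and 2.52 FPKM in Smad3 KO Dox and WT Dox and 2.03 and 5.58 FPKM in Smad3 KO saline and WT saline. Groups of 1 library do not allow a search for libraries that stand apart within a group.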

How the results depend on the processing

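No paired analysis was possible because each group holds 1 library and no library has a replicate. The macrophage median stayed below 0 and the erythroid median above 0 under the alternatives run, and the erythroid median moved to 1.01 with no filter. The pan-endothelial median, -0.21, was -0.32 with median-ratio scaling and -0.17 as TPM. It was 0.00 with the trend over the median transcript length removed and -0.04 over the longest transcript, so no direction is read from it. Setting both libraries to the same pan-endothelial level brings this median near 0 by construction (-0.01). The count of 762 genes higher in Smad3 KO Dox became 1387 with no filter, 369 with a mean of at least 5 FPKM, 91 with a size rule of 2 and 153 among genes with 1 transcript and at least 20 estimated fragments, and 1286 with both libraries at the same pan-endothelial level. The 462 lower genes became 263 with a mean of at least 5 FPKM, 63 with a size rule of 2, 75 in those single-transcript genes and 299 at the same pan-endothelial level. These counts shrink partly because fewer genes were tested. Smad3, at -0.94, passed the rule at -1.21 with a pseudocount of 0.1, -1.30 with only the lowest value replaced, -1.02 and -1.03 with median-ratio and upper-quartile scaling, -1.04 as TPM, -1.12 with mitochondrially encoded and globin genes left out of the sum, and -1.06 with the trend over the median length removed, but stood at -0.63 with the trend over the longest transcript removed, -0.74 with a pseudocount of 1 and -0.80 at the same pan-endothelial level; the cause was not tested. The restriction to single-transcript genes and the trend over the longest transcript were chosen after seeing the data. Of 181 other named genes, 25 lost their call and 6 gained one with the trend over the longest transcript removed, 17 lost it over the median transcript length, 17 lost it at the same pan-endothelial level, 10 lost it with a pseudocount of 1. No gene past the rule turned in direction, and 19 named genes short of it changed sign under some alternative, among them Kdr, Tek, Cldn5 and Actb. Depth was lowest in Smad3 KO Dox, and with 1 library per group no error can be given.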

Other observations

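Gene class moved with the share of calls. Protein-coding genes were higher in Smad3 KO Dox in 4.92% of 11276 and lower in 3.25%, while processed pseudogenes were higher in 20.6% of 281 and lower in 8.54%. On the Y chromosome 27 of 46 genes tested were higher (58.7%) and 2 lower (4.35%), beside 6.18% and 3.75% of all genes. What kind of genes these were was not examined, and no cause was tested. The mitochondrial ribosomal RNAs were higher in both genotype pairs, unlike the mitochondrially encoded protein genes: mt-Rnr1 differed by 1.03 and 1.88 and mt-Rnr2 by 1.06 and 1.85 in the Dox and the saline pair. These genes were chosen after their values were seen. Actb, which did not pass between the Dox libraries, had 13709 FPKM in Smad3 KO saline against 3160 FPKM in WT saline.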
